A study of Mus musculus with 4 samples.

Results

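The miR-181 family was examined in small RNA libraries from resting mouse bone marrow derived macrophages (BMDMs). Its members were taken by name as 6 of the 1979 mature miRNAs listed, namely the 5p guide strands mmu-miR-181a-5p, mmu-miR-181b-5p, mmu-miR-181c-5p and mmu-miR-181d-5p and the 3p strands mmu-miR-181a-1-3p and mmu-miR-181a-2-3p, which tell the miR-181a loci apart. There were 4 libraries, of which 2 came from separate wild-type cultures, named WT A and WT B and always given in that order, 1 from the miR-146a knock-out (KO) and 1 from the homozygous non-seed swap (3′F), in which the 3′ part of the miR-146a duplex was exchanged between its strands. All mice were 129/B6 mix of 6 to 7 months, with 3 mice of each genotype, and it is not stated if their cells were pooled for a library. Bone marrow cells were grown for 8 to 9 days at 85000 cells per cm2 with 10 ng/ml M-CSF, the growth factor that drives macrophage differentiation, and were then held for 16 h in medium without LPS. Both mutant alleles are germline changes at the miR-146a locus that were made in embryonic stem cells, so every cell type of the culture carries them.

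A miRNA guides Argonaute to transcripts that pair with its seed, bases 2 to 8 from the 5′ end, and miRNAs with a common seed share many targets. The miR-181 family is a classical haematopoietic miRNA family. It is best known in developing T cells, where miR-181a tunes the sensitivity of antigen receptor signalling by repressing phosphatases, and it also has roles in B cell and natural killer cell development. Each hairpin gives a 5p and a 3p strand, and the 5p strand is the one usually loaded.

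The mature sequences are shown because the shared seed defines the family and because the few differing bases decide which reads can be told apart. They come from RefSeq on GRCm38.p6, which held all 6 members and the 4 other strands of the same hairpins. Each is written 5′ to 3′ with the seed in capitals.
miR-181a-5p: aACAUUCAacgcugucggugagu
miR-181b-5p: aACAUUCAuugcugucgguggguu
miR-181c-5p: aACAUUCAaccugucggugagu
miR-181d-5p: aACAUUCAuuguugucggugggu
miR-181a-1-3p: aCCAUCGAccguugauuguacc
miR-181a-2-3p: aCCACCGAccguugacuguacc
miR-181c-3p: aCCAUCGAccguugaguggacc
The 4 guide strands had the same seed, and none of the other names among 1679 mature mouse miRNAs in that table carried it. Counted from 1 at the 5′ end, miR-181b-5p differed from miR-181a-5p by the substitutions A9U, C10U and A21G and was 1 base longer. miR-181d-5p differed from miR-181b-5p by C12U and was 1 base shorter, and miR-181c-5p lacked 1 base of miR-181a-5p with no substitution. Between the members from the opposite arm, miR-181a-2-3p differed from miR-181a-1-3p by U5C and U16C, so their seeds differed. miR-181c-3p, which is not a member, differed from miR-181a-1-3p by U16G and U19G and had the same seed as it.

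The family comes from 6 hairpins in 3 pairs (GRCm38, GENCODE vM21). On chromosome 1 (plus strand), Mir181a-1 spans 137966455 to 137966541, and Mir181b-1 follows at 137966639 to 137966718, with 97 bases between them. Both are in an intron of Gm4258, a processed transcript on the same strand, and both overlap an exon of the lincRNA A430106G13Rik, also on that strand. Both also lie opposite to introns of the lincRNA Gm26936 on the minus strand. Mir181a-2, from 38852735 to 38852810, and Mir181b-2, from 38853830 to 38853918, lie on the plus strand of chromosome 2 with 1019 bases between them, opposite to introns of the protein-coding gene Nr6a1, and Mir181b-2 is also opposite to an exon of Gm44144. Mir181c, from 84178873 to 84178961, and Mir181d, from 84178716 to 84178787, lie on the minus strand of chromosome 8 with 85 bases between them, in an intron of transcript Nanos3-203.

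The authors deposited estimated counts and, beside each, reads per 1000000 counts (RPM). Library totals ranged from 11410940 to 19087640 counts, at which 3 counts correspond to between 0.157 and 0.263 RPM. The targeted miR-146a-5p had a level of 6253 and 5485 RPM in the WT pair, 13.4 with KO and 6.64 with 3′F. The 3′F miRNA had 171 counts (10.6 RPM) in 3′F and 0 in the other libraries. These counts do not compare the abundance of the 3′F miRNA with that of miR-146a-5p. The paper warns that ligation efficiency varies with sequence, at times by orders of magnitude. By qRT-PCR with standards, the paper found similar absolute levels of both miRNAs in most tissues and cell populations examined. KO and 3′F have 1 library each, so a difference from WT has no replicate check and no p-value was computed. Intervals were computed by Wilson's method at 95% from the counts of the library and cover counting error only. Of 1979 miRNAs, 251 averaged 10 RPM or more across libraries and were taken as expressed. Among these were 5 of the 6 members, all but miR-181c-5p.

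miR-181a-5p and miR-181b-5p each have 1 line in the table for each of their hairpins, and reads that fit several lines had been entered as fractions. Of the 24 values of the 6 guide strand lines in 4 libraries, 17 were not whole numbers. The sum of the 6 lines was nevertheless whole in every library, at 16376 (16375.99 from the rounded entries) and 12575 in the WT pair, 21804 in KO and 14417 in 3′F, with a tolerance of 0.011. The same held for the 6 lines of the 3p strands, whose sums were 4808, 2595, 5521 and 4841 in that order, although 8 of their 24 values were fractions. The fractions thus cancelled within the family, and a guide strand read was entered once in total rather than once on each line. For miR-181a-5p the lines of the 2 hairpins differed by only 7 and 5 counts in the WT pair, 4 in KO and 3 in 3′F. The annotated 5p strand is followed by 4 identical bases in both miR-181a hairpins. For miR-181b-5p the line of mir-181b-2 exceeded that of mir-181b-1 by 363 and 274.5 counts in the WT pair, 399 in KO and 264 in 3′F, between 7.71% and 8.98% of the larger line. The next base after the annotated strand differs between these hairpins, G in mir-181b-1 and U in mir-181b-2. Values below are for the line with the higher summed count unless summed lines are named.

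miR-181a-5p and miR-181b-5p were the main guide strands of the family in BMDMs, at nearly equal levels. mmu-miR-181a-5p was at 245 and 274 RPM in the WT pair, 303 in KO and 244 in 3′F, and its WT level was 259 ± 21.0 RPM (SD, n = 2). By summed lines it was at 489, 548, 605 and 488 RPM. mmu-miR-181b-5p was at 237 and 282 RPM in the WT pair, 271 in KO and 202 in 3′F, with a WT level of 260 ± 32.1 RPM (SD, n = 2). Its summed lines gave 452, 540.4, 522 and 388.5 RPM. The order of the pair changed between the WT libraries on single lines, and their WT means lay closer together than the spread of either.

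The guide strands of the third hairpin pair were far less abundant. mmu-miR-181d-5p was at 16.7 and 13.4 RPM in the WT pair, 15.0 in KO and 13.6 in 3′F, or 15.0 ± 2.37 RPM in WT (SD, n = 2). mmu-miR-181c-5p had 23 and 2 counts in the WT pair, 18 in KO and 7 in 3′F. Its levels were 1.35, 0.18, 0.94 and 0.43 RPM, below the expression minimum, and it is the only member whose WT libraries differed by more than 2-fold (7.69-fold). The counting intervals of miR-181c-5p in WT A, 0.898 to 2.02 RPM, and in WT B, 0.0481 to 0.639 RPM, did not overlap, whereas its KO and 3′F values lay between the WT values.

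As a share of all guide strand counts of the family (summed lines), miR-181a-5p made up 51.0% (interval 50.2 to 51.7) and 49.7% (48.9 to 50.6) in the WT pair, 52.9% (52.3 to 53.6) in KO and 54.8% (54.0 to 55.6) in 3′F. The intervals of both mutant libraries lay above those of both WT libraries. miR-181b-5p took 47.2% and 49.0% in the WT pair, 45.7% in KO and 43.6% in 3′F. miR-181c-5p and miR-181d-5p together held between 1.23% in WT B and 1.88% in WT A. Libraries can carry different sequences at different efficiency during ligation, so shares of unlike sequences are shares of counts, not of molecules.

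**Figure D1:**
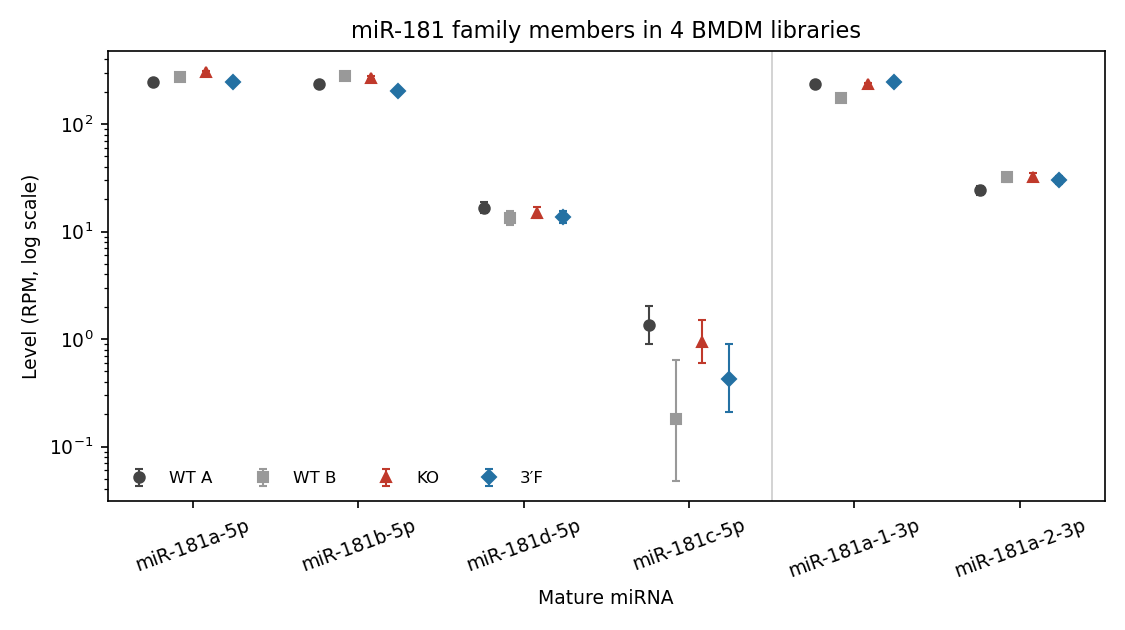
Level of each miR-181 member in the 4 libraries, in RPM on a logarithmic axis, with 95% Wilson counting intervals as bars (hidden by the symbol where narrow); the grey line separates 5p from 3p strands. With 1 line for each miRNA, miR-181a-5p, miR-181b-5p and miR-181a-1-3p sit between 175 and 303 RPM in every library. On the same lines, miR-181a-2-3p and miR-181d-5p lie about an order of magnitude lower, and miR-181c-5p is lowest, from 0.18 to 1.35 RPM. For miR-181a-5p and miR-181b-5p the line shown holds only part of the reads. Their summed lines, not drawn, run from 488 to 605 RPM and from 388.5 to 540 RPM.

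Most 3p counts were on the strands of the hairpin pair on chromosome 1. mmu-miR-181a-1-3p, from Mir181a-1, was at 237 and 175 RPM in the WT pair, 235 in KO and 249 in 3′F, and at 206 ± 43.3 RPM in WT (SD, n = 2). This came to between 0.320 and 0.510 of the summed lines of miR-181a-5p, the usual guide. mmu-miR-181a-2-3p, from Mir181a-2, was at 24.25 and 31.9 RPM in the WT pair, 32.2 in KO and 30.2 in 3′F, or 28.1 ± 5.41 RPM in WT (SD, n = 2). WT B was the lowest library for miR-181a-1-3p and WT A the lowest for miR-181a-2-3p, so these strands differed in opposite directions between the WT cultures.

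Of the 3p counts of both miR-181a loci, miR-181a-1-3p made up 90.7% (interval 89.8 to 91.5) and 84.6% (83.1 to 86.0) in the WT pair, 87.9% (87.0 to 88.8) in KO and 89.2% (88.3 to 90.1) in 3′F. Both mutant values fell between the WT values. miR-181b-1-3p showed the same predominance of the chromosome 1 pair, with 315 and 210 counts in the WT pair, 380.5 in KO and 290.5 in 3′F, against 16, 11, 10.5 and 13.5 counts of miR-181b-2-3p. It made up between 95.02% and 97.3% of the miR-181b 3p counts. Over all 6 3p strands, the chromosome 1 pair held between 85.2% and 90.6%, the chromosome 2 pair between 8.94% and 14.5%, and the chromosome 8 pair between 0.347% and 0.589%. miR-181c-3p had between 9 and 30.5 counts and miR-181d-3p between 0 and 2, and for its 0 of 11410940 counts in WT B the floor of 3 counts is 0.263 RPM and the upper Wilson limit 0.337 RPM. A 3p strand also depends on how long it persists after processing, so these shares describe strands and not transcription of the loci.

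The balance of the arms varied between the WT cultures. The ratio of miR-181a-1-3p to miR-181a-5p (summed lines) was 0.484 and 0.320 in the WT pair, 0.388 in KO and 0.510 in 3′F. The KO value lay within the WT range and the 3′F value above it. On the log2 scale, KO differed from the WT mean by -0.02 and 3′F by 0.37, against a difference of -0.60 between WT B and WT A. The miR-181b hairpins had far fewer 3p counts, with a ratio of both 3p strands to miR-181b-5p of 0.0429 and 0.0358 in the WT pair, 0.0393 in KO and 0.0483 in 3′F. The order of the libraries was the same for both ratios, lowest in WT B and highest in 3′F. It was another for miR-181a-2-3p over miR-181a-5p (1 line), which was lowest in WT A and highest in 3′F. Its log2 ratio was -3.33 and -3.10 in the WT pair, -3.23 in KO and -3.01 in 3′F. Together the 3p strands made up 22.7% and 17.1% of all miR-181 counts in the WT pair, 20.2% in KO and 25.1% in 3′F.

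**Figure D2:**
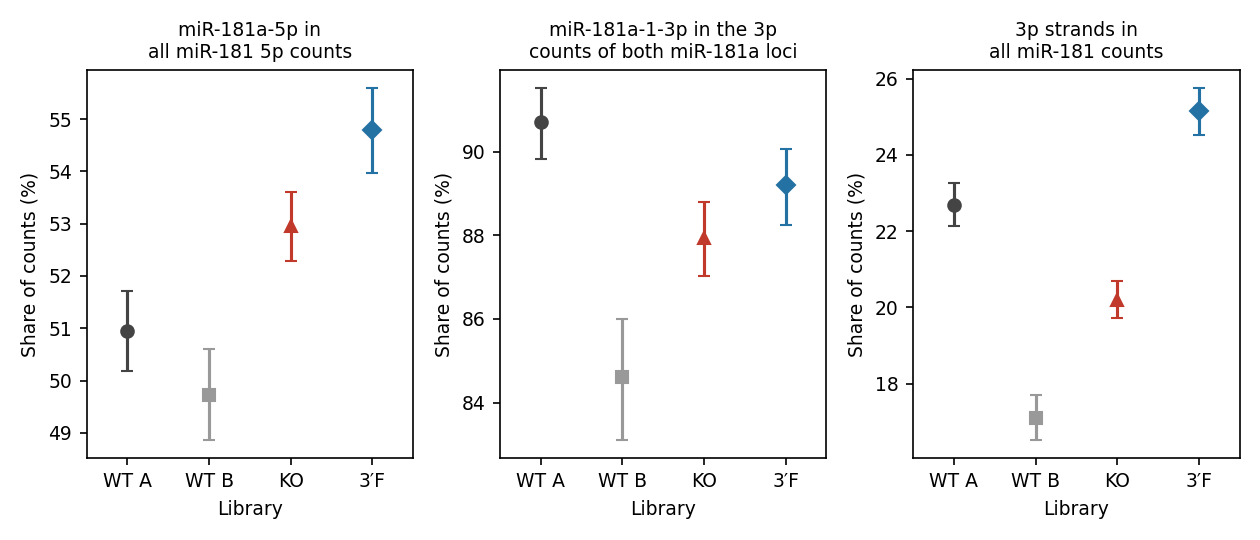
Shares of counts within the miR-181 family by library, in percent with 95% Wilson counting intervals; the axes do not start at 0. The share of miR-181a-5p among guide strands runs from 49.7% in WT B to 54.8% in 3′F with both mutants above both WT libraries, that of miR-181a-1-3p runs from 84.6% in WT B to 90.7% in WT A, and the 3p share of all counts from 17.1% in WT B to 25.1% in 3′F.

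The comparison of KO with WT asked whether loss of miR-146a went along with another level of the family. Differences were taken on the log2(RPM + 1) scale from the mean of the WT libraries, which understates the change of low miRNAs. None of the 5 expressed members reached a 2-fold distance from each WT library in KO, which 3.59% of the 251 expressed miRNAs did. miR-181a-5p in KO was 1.24-fold the WT A level and 1.10-fold the WT B level, a log2 difference of 0.22, and WT B was 0.16 above WT A. miR-181b-5p lay between the WT libraries, with a log2 difference of 0.07, and so did miR-181d-5p with 0.00. For the 3p strands the log2 difference was 0.20 for miR-181a-1-3p, within the WT range, and also 0.20 for miR-181a-2-3p, which at 32.2 RPM was barely above the 31.9 RPM of WT B. Of the 5 expressed members, 2 were above both WT libraries, where 37.8% of expressed miRNAs were, and 0 were below both, where 39.4% were. Under each of the 3 other scalings 3 members were above, where between 39.4% and 43.4% were, and 0 below, the third member being miR-181a-1-3p with RPM over 1 line per miRNA and miR-181b-5p otherwise. The median log2 difference of the 5 was 0.20, and that of all 251 was 0.01. For miR-181c-5p the value was 0.22 with WT libraries 0.99 apart.

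In 3′F, 0 of the 5 expressed members reached a 2-fold distance from each WT library, which 0.797% of the 251 did. miR-181b-5p was the member farthest from WT, at 0.855-fold the WT A level and 0.717-fold the WT B level, a log2 difference of -0.35. It had rank 35 of 251 by the size of its difference. miR-181a-5p differed by -0.09 and was 0.997 times the level of WT A, which is within the counting interval of WT A. miR-181d-5p differed by -0.13, between the WT libraries. The 3p strands lay on the other side, with 0.29 for miR-181a-1-3p, above both WT libraries and rank 52 of 251, and 0.11 for miR-181a-2-3p, between them. Of the 5 expressed members, 1 was above both WT libraries, where 22.7% of expressed miRNAs were, and 2 were below both, where 44.2% were. The median log2 difference of the 5 was -0.09, and that of all 251 was -0.08. These positions depended on scaling. In 3′F, miR-181a-5p lay within the WT range under each of the 3 other scalings, and miR-181a-2-3p lay above it with edgeR TMM and DESeq2 size factors, while miR-181b-5p stayed below and miR-181a-1-3p above both WT libraries under all 3. The 3 other scalings put 1 or 2 members above and 1 below, where between 22.7% and 31.9% of expressed miRNAs were above and between 30.7% and 42.6% below.

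KO and 3′F share the WT libraries, so their differences are not independent. Side by side, miR-181a-5p had 0.22 in KO and -0.09 in 3′F, miR-181b-5p 0.07 and -0.35, miR-181d-5p 0.00 and -0.13, miR-181a-1-3p 0.20 and 0.29, and miR-181a-2-3p 0.20 and 0.11. The ratio of miR-181b-5p to miR-181a-5p within a library (summed lines) needs no scaling between libraries. It was 0.926 and 0.986 in the WT pair, 0.862 in KO and 0.797 in 3′F, so both mutants were below both WT libraries, with log2 differences from the WT mean of -0.15 in KO and -0.26 in 3′F, against 0.09 between WT B and WT A. This ratio was chosen after its values were seen. It nearly restates the guide strand shares of miR-181a-5p and miR-181b-5p given above, so the ratio and the shares are not separate observations. How often other pairs of miRNAs place both mutants on the same side of both WT libraries was not computed.

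**Figure D3:**
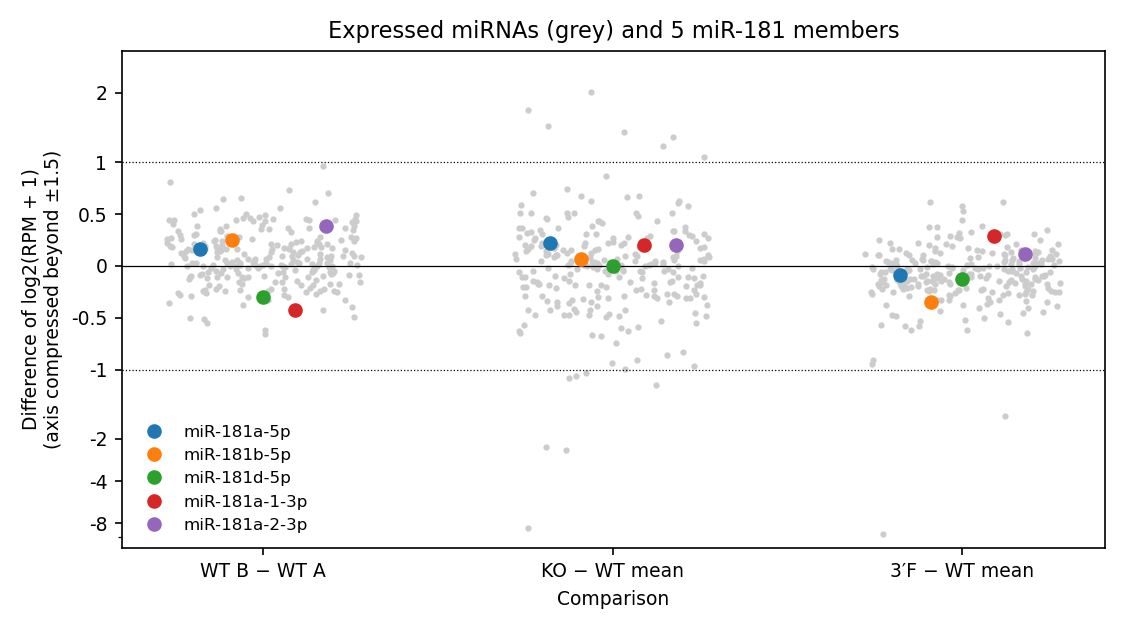
Differences of log2(RPM + 1) for WT B minus WT A, KO minus the WT mean and 3′F minus the WT mean; grey points are the 251 expressed miRNAs, colored points the 5 expressed miR-181 members, and dotted lines mark a 2-fold difference (the axis is compressed beyond 1.5). The members stay between -0.35 and 0.29 in the mutants and between -0.43 and 0.38 in the WT comparison, inside the dotted lines throughout.

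The level of the common seed was given by the sum of the guide strands. Over all 6 lines it was 959 (interval 945 to 974) and 1102 (1083 to 1121) RPM in the WT pair, 1142 (1127 to 1158) in KO and 890.2 (876 to 905) in 3′F, or 1031 ± 101 RPM in WT (SD, n = 2). KO was above and 3′F below both WT libraries, with log2 differences of 0.15 and -0.21, against 0.20 between WT B and WT A. The sum came to between 0.0890% and 0.114% of a library's counts. Over the 4 libraries, the 3 of 245 other expressed miRNAs whose pattern lay nearest to this sum were miR-503-3p, miR-191-5p and miR-23a-5p. Their root mean square differences from it, on the log2(RPM + 1) scale centred on WT, were 0.02, 0.04 and 0.04, where the median of the 245 was 0.22. The 3 were picked as the nearest, so their place below that median was fixed by the choice. miR-191-5p, an abundant miRNA, was at 5460 and 6146 RPM in the WT pair, 6163 in KO and 5141 in 3′F. miR-503-3p and miR-23a-5p were at or below 12.7 RPM, where small differences rest on few counts.

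Of a list of 15 other miRNAs known in blood cells, 14 were expressed, and 1 of these in KO passed the 2-fold rule upward and 0 downward. Of all 251 expressed miRNAs, 3.59% passed in KO in either direction. That miRNA was miR-146b-5p, the close relative of the deleted miRNA, with 1558 and 1916 RPM in WT and 4410 in KO. In 3′F 0 passed in either direction, where 0.797% of the 251 did. The median log2 difference of the 14 was -0.06 in KO and -0.10 in 3′F, and that of all 251 was 0.01 and -0.08.

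Marker miRNAs of cell types were read beside these values, since the family is abundant in lymphocytes and a bulk library cannot tell fewer cells of a type from less RNA per cell. The 5 miRNAs listed as myeloid markers include miR-223-3p and miR-142a-3p, which are also on the blood cell list. Whether the 5 mark myeloid cells only was not tested. All 5 were expressed and summed to 382667 and 344207 RPM in WT, 336703 in KO and 357229 in 3′F. Between 99.0% and 99.2% of each sum was miR-21a-5p, and the other 4 summed to 3639 and 2822 RPM in WT, 3051 in KO and 2848 in 3′F. Of these, miR-142a-3p was below both WT libraries in each mutant, with 1721 and 1121 RPM in WT, 1115 in KO and 1071 in 3′F. The others were not. In KO, miR-223-3p was at 1636 RPM against 1574 and 1466 in WT, and miR-511-3p at 80.8 against 76.8 and 65.6, above both WT libraries. In 3′F they lay between the WT libraries, as miR-142a-5p did in both mutants. The lymphocyte marker miR-150-5p was at 2.93 and 2.80 RPM in WT, 2.51 in KO and 1.54 in 3′F, and its partner strand miR-150-3p was at 0 in all libraries but WT A. The 7 stromal and endothelial markers summed to between 18.2 and 21.5 RPM in all libraries, and 1 of them, miR-126a-3p, was expressed. Without it the sums were 10.9 and 11.1 RPM in WT, 8.35 in KO and 7.93 in 3′F. The smooth muscle and stromal miR-143-3p was lower in both mutants, at 4.74 and 4.91 RPM in WT, 2.10 in KO and 2.22 in 3′F. So were miR-145a-5p and miR-214-3p, which were under 0.5 RPM throughout. The rest of the list was not lower. miR-126a-3p was at 10.7 and 9.82 RPM in WT, 13.15 in KO and 10.3 in 3′F. miR-126a-5p was above both WT libraries in each mutant, at 0.41 and 0.35 RPM in WT, 0.84 in KO and 0.74 in 3′F. Both mutants lay between the WT libraries for miR-199a-3p and miR-199a-5p. The 4 erythroid markers were lower in both mutants, with sums of 170 and 159 RPM in WT, 70.35 in KO and 80.3 in 3′F. Most of each sum came from miR-486a-5p and miR-486b-5p, whose levels were nearly the same in every library. miR-486a-5p was at 74.1 and 63.5 RPM in WT, 32.3 in KO and 35.2 in 3′F. In the same order miR-486b-5p was at 76.55, 64.5, 33.8 and 37.0 RPM. miR-144-3p was at or below 0.61 RPM throughout. Of the 4 erythroid markers 1, miR-451a, passed the 2-fold rule downward in each mutant. Over all expressed miRNAs, 3.59% passed in KO and 0.797% in 3′F, in either direction. Whether these differences have a part in the miR-181 values was not tested.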

How the data were processed

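Small RNA libraries from resting BMDMs were made with a NEBNext small RNA kit. The submitters' processing notes name cutadapt 1.8.3. The aligner, counter, genome build and miRNA release are not given in the sources used here. The authors deposited estimated counts for 2129 lines, 1 for each mature miRNA and precursor, with fractions for reads shared between lines, and RPM values, each count divided by the library's sum over all lines. No sample column was left out.

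From the deposited RPM values, the line with the highest summed count was taken for each of 1979 miRNAs, and log2(RPM + 1) was compared with its WT mean. Replicate letters come from the labels, and the paper names them as culture replicates. The members, lists and alternatives were chosen with earlier results of these data known. Named miRNAs are the members, the other strands of their hairpins, the targeted miRNA, listed miRNAs and the 3 nearest miRNAs. Alternatives were 3 other scalings (DESeq2 size factors and edgeR TMM, both from counts rounded to whole numbers, and RPM recomputed with a single line for each miRNA), a pseudocount of 0.1, other lines, minimums and thresholds, and each WT library left out.

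Functions were tested on 1979 simulated miRNAs with the WT spread (biological coefficient of variation 0.124 by edgeR). Of 44 expressed miRNAs changed 4-fold, 100% were called in the right direction in KO and in 3′F, and 0 of 206 unchanged ones were called. A 4-fold change lies well beyond the 2-fold rule, so this checked the functions and not differences as small as those of the members. The median log2 difference of the unchanged simulated miRNAs was -0.18 in KO and -0.17 in 3′F. Python 3.11.15, numpy 2.4.6, pandas 2.3.3, scipy 1.17.1, matplotlib 3.10.9, R 4.3.3, edgeR 4.0.16 and DESeq2 1.42.0 were used.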

Additional observations from a re-analysis of the deposited data

Results flagged for a closer look

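miR-181a-5p was the only member that lay beyond both WT libraries in opposite directions in the mutants, with a log2 ratio to WT of 0.22 in KO and -0.086 in 3′F. The difference between KO and 3′F was not tested, because each has 1 library. The 3′F level, 244 RPM, was below that of WT A, 245 RPM, by less than counting error, and under the 3 other scalings it lay between the WT values.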

How the results depend on the processing

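No paired analysis was possible because each mutant has 1 library, so that only the letter A, which the labels' column names give to WT A and to both mutants, is shared. Against WT A alone, miR-181a-5p was at 0.31 in KO and -0.0037 in 3′F, and miR-181b-5p at 0.20 and -0.23, on the log2 scale. Of 196 alternative values, 182 stayed within the spread of the WT libraries or within 1.5 times a count, and 14 did not. Leaving out a WT library moves a difference by a fixed part of the WT spread, so staying within it is no sign of stability. Of 80 alternative log2 differences of members, 73 kept the sign of the reported one, and the largest among expressed members, in either direction, was 0.50, for miR-181a-1-3p in 3′F without WT A. Without WT A in turn, miR-181b-5p in KO became -0.06, miR-181d-5p in 3′F 0.02, miR-181c-5p in 3′F 0.28 and miR-181a-2-3p in 3′F -0.08. Without WT B, miR-181c-5p in KO became -0.28, miR-181d-5p in KO -0.15 and miR-181a-1-3p in KO -0.01. With summed lines, the WT mean became 518 RPM for miR-181a-5p, 496 for miR-181b-5p and 1031 for the summed guide strands (535 with 1 line each), by construction, and with RPM over 1 line per miRNA it was 283 for miR-181a-5p. The number of members at least 2-fold from both WT libraries stayed 0 in KO and 3′F at 1.5-fold and 3-fold, under each scaling and with either WT library left out. Over all expressed miRNAs, 9 passed in KO. A threshold of 1.5-fold gave 27 and one of 3-fold gave 4, while minimums of 1 RPM or none gave 17 and of 100 RPM gave 3. Omitting WT B gave 13 and omitting WT A gave 15. For 3′F, 2 passed, against 6 for a threshold of 1.5-fold, 1 for 3-fold, 1 for the 100 RPM minimum, 2 when WT A was omitted and 5 when WT B was. Beyond fewer or more miRNAs being tested, the cause was not tested. The median of all expressed miRNAs moved by less than 0.1 under each scaling. The ratio of miR-181b-5p to miR-181a-5p and its alternatives, the counts of members above or below WT by scaling, the ranks with summed lines and the marker sums without their most abundant member were chosen after seeing the data. Depth limits miR-181c-5p, which had as few as 2 counts.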

Other observations

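Of 80 hairpins with both arms at a mean of at least 10 RPM, mir-181a-1 had rank 4 by the difference of its log2 ratio of 3p over 5p between the WT libraries, with 1 line or with summed lines of every miRNA. The median size of that difference over the 80 hairpins was 0.22. By how close miR-181a-1-3p was to miR-181a-5p in WT, mir-181a-1 had rank 3 with 1 line of miR-181a-5p (log2 ratios of -0.05 and -0.65 in the WT pair). With summed lines it had rank 11 (-1.05 and -1.64). The counts of miR-181a-5p were split almost evenly between the lines of its hairpins. None of these ratios is therefore the arm ratio of mir-181a-1 alone. The ranks were computed after the ratio had been seen.

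The fractional entries of multi-hairpin miRNAs followed the number of lines in the whole table. Of the values of at least 20 counts, 82.0% of 1525 were whole numbers for the 1894 miRNAs with 1 line. For the 64 miRNAs with 2 lines it was 25.8% of 194 values, and for the 12 with 3 lines 5% of only 20 values. Of those 20 values, 60% were multiples of 1/3 but not whole. A single line of such a miRNA therefore holds part of its reads, as the guide strands of miR-181a and miR-181b show.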
